A study of Mus musculus with 12 samples.

Results

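Imprinted genes were followed across the cell types of the embryonic mouse cortex and between saline-treated and EtOH-treated embryos. The members were a given list of 45 known imprinted genes in 19 chromosomal neighbourhoods, matched by symbol, of which 39 were found among the 23513 genes of the count tables. The other 6 (Phlda2, Rian, Mkrn3, Snhg14, Peg13 and Mcts2) were not analysed here. Nuclei of dissected C57BL/6J cortices were profiled by snRNAseq, in which each captured RNA molecule carries its own barcode and is counted 1 time, as a UMI. Pregnant dams had received saline or 2.5 g/kg EtOH, prepared as 25% v/v ethanol in saline, by daily i.p. injection from E8.5 to E13.5, and embryos were collected at E14.5 according to the methods and at embryonic day 14 according to the labels. Saline embryos numbered 5, of which S1-1 and S1-2 came from dam S1 and S2-1, S2-2 and S2-4 from dam S2. EtOH embryos numbered 6, of which E1-1 and E1-2 came from dam E1 and E2-1 to E2-4 from dam E2. Dams S1 and E1 formed batch 1 and dams S2 and E2 formed batch 2, so that each group rests on 2 dams and littermates were taken as independent.

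Imprinted genes are read mainly or only from the copy inherited from one parent. The choice is written as DNA methylation at imprinting control regions in the germ line and is kept in the embryo, and genes of a neighbourhood often share one control region and one long noncoding RNA. Many imprinted genes act on growth, cell cycle exit and metabolism, and several are switched to a different parental copy, or to both, in neurons. All animals were of 1 inbred strain, so the counts sum both parental copies and hold no information on which copy was read.

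The tables held 50550 nuclei in 25 clusters, with 14078316 to 83061737 UMIs per embryo, and the 39 members together took 0.643% of all UMIs. The clusters carried the names given by the study: 5 of radial glial cells (RGC; Clusters 2, 3, 12, 20 and 21), 2 of intermediate progenitor cells (IPC; Clusters 6 and 17), 8 of projection neurons (PN), 7 of interneurons, and Clusters 11, 14 and 19, named striatal interneurons, Layer I Cajal-Retzius cells and unknown. Markers followed these names for most classes, as Hes1 was 47.0 to 99.4 CPM (a gene's counts scaled by all counts of its sum) in the RGC clusters and at most 26.3 CPM elsewhere, and Eomes was 202 to 414 CPM in the IPC clusters and at most 67.4 CPM elsewhere. Gad2 was 608 to 1248 CPM in the interneuron clusters and 1172 CPM in Cluster 11, while the ranges of Neurod2 met, with 80.2 to 294 CPM in the PN clusters and 106 CPM in IPC Cluster 17. Saline embryo S2-4 stood apart. Over 8941 genes its deviations from the mean of all embryos correlated with those of the EtOH embryos at r = 0.21 to 0.59 and with those of the other saline embryos at r = -0.65 to -0.23, so calls of members are given with and without it. As S2-4 was singled out for this likeness, leaving it out widens differences between the groups over all genes. The calls gained without it are therefore no separate support. Mean UMIs per nucleus over all clusters were 9898 to 10873 in the other 4 saline embryos, 7474 in S2-4 and 4858 to 8237 in the EtOH embryos, so that this measure moved with treatment and placed S2-4 among the EtOH embryos. Its part in the differences below was not tested. Each nucleus also carries a barcode, apart from those of its RNA molecules. Of 50226 different barcodes of nuclei, 314 (0.625%) occurred in more than 1 embryo. Saline embryo S2-1 had 15.7% of its nuclei in Cluster 7 (Int 1), the largest share of the 11 embryos, against 4.103% to 6.49% in the other saline embryos and 2.34% to 13.01% in the EtOH embryos.

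The start regions of the genes that the results turn on are shown first, as imprinting is set at CpG-rich DNA. RefSeq windows on GRCm38.p6 reach from 250 bases before to 50 bases after a gene's start and were found for 32 of the 39 members, with 52 windows in all. The median number of CG dinucleotides per window was 7 over all 32851 windows, and the windows printed here held 9 to 45. Capitals mark TGCCGC, on either strand (GCGGCA as printed), the hexamer that the imprint-keeping zinc finger protein ZFP57 binds when its CG is methylated. The windows below belong to the 5 members that fell in at least 1 cluster and to Ube3a, the member whose EtOH effect differed among cell classes.
Kcnq1ot1, chr7:143296498-143296797, minus strand: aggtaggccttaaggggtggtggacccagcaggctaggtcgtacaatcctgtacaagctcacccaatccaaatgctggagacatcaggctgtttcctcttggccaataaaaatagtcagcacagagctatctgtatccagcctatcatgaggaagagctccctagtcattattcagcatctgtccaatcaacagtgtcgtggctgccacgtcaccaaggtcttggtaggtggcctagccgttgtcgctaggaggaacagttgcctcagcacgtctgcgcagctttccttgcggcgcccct
Peg3, chr7:6730370-6730669, minus strand: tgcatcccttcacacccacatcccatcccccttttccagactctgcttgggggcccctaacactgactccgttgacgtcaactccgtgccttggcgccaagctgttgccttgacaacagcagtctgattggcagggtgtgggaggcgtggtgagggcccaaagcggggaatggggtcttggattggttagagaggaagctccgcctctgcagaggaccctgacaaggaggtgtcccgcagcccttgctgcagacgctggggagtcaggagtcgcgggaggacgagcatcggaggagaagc
Grb10, chr11:12037371-12037670, minus strand: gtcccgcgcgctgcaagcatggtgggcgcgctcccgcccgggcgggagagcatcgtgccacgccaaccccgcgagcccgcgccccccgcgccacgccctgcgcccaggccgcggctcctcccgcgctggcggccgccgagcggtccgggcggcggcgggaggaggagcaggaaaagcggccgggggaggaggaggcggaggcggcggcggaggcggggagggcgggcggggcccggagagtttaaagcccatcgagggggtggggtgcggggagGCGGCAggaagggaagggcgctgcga
Nnat, chr2:157559828-157560127, plus strand: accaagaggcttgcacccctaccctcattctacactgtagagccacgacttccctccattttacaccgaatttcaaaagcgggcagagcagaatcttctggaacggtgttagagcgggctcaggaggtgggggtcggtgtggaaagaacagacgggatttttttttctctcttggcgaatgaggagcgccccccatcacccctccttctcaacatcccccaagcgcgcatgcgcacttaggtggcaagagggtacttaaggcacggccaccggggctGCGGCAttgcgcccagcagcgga
Zdbf2, chr1:63273019-63273318, plus strand: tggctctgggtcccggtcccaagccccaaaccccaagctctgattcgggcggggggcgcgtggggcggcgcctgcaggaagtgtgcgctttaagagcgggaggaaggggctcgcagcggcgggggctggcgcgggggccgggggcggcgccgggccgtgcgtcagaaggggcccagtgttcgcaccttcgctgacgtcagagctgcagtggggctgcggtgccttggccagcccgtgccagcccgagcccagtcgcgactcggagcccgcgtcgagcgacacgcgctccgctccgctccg
Zdbf2, chr1:63200108-63200407, plus strand: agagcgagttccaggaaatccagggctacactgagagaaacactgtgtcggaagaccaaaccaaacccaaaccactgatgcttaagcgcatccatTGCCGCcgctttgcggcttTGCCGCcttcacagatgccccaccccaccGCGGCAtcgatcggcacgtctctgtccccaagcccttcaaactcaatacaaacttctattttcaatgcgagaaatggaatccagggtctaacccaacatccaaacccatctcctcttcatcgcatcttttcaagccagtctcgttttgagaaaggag
Ube3a, chr7:59228500-59228799, plus strand: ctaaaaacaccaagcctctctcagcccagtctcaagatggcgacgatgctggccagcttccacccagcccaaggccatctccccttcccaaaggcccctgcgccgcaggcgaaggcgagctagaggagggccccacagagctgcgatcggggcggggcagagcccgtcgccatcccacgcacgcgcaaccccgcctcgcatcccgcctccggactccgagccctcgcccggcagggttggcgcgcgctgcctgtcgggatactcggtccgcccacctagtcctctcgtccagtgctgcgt
The hexamer occurred in 13 of the 52 windows of members (25%) and in 11.6% of all windows, and the windows of members held more CG, with a mean of 16.3 against 12.4. It was present 1 time in the printed window of Grb10 and in that of Nnat and 3 times in the upstream window of Zdbf2, and these letters were not in the windows of Kcnq1ot1, Peg3, Ube3a or the other Zdbf2 window. A second Grb10 window, at chr11:12027922-12028221, held 9 CG and no hexamer and is not printed. The windows of Peg3 and Usp29, which are read away from each other, overlapped by 263 bases.

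Levels are given as CPM of counts summed per embryo and cluster, averaged over the embryos with at least 10 nuclei in the cluster, and are compared for one gene between clusters, not between genes. At least 10 CPM in some cluster was reached by 35 of the 39 members. The 4 below this level throughout were Igf2, an embryonic growth factor with 10 UMIs in all nuclei together, its neighbour H19, a noncoding RNA with 350 UMIs, Commd1 with 227 UMIs and the splicing factor gene Zrsr1 with 1332 UMIs. Igf2 overlaps Gm49394 and Commd1 overlaps Gm28048 on the same strand, and the part of these overlaps in the low counts was not tested. The highest cluster was an RGC cluster for 13 of the 35, an interneuron cluster for 11, an IPC cluster for 1, a PN cluster for 3 and Cluster 11, 14 or 19 for 7. The ratio of the highest to the lowest cluster had a median of 5.67 over the 32 members with more than 3 UMIs in the lowest cluster. It ran from 1.55 for Trappc9, a vesicle-tethering gene, to 109 for Rasgrf1, a Ras activator of neurons. The highest and second cluster differed by more than the sum of their SDs only for Usp29 and Snrpn, and for the other 33 the gap was smaller. This rule is coarse, as the SDs pool saline and EtOH embryos and the pairing of clusters within embryos is not used. The order at the top was not tested.

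**Figure D1:**
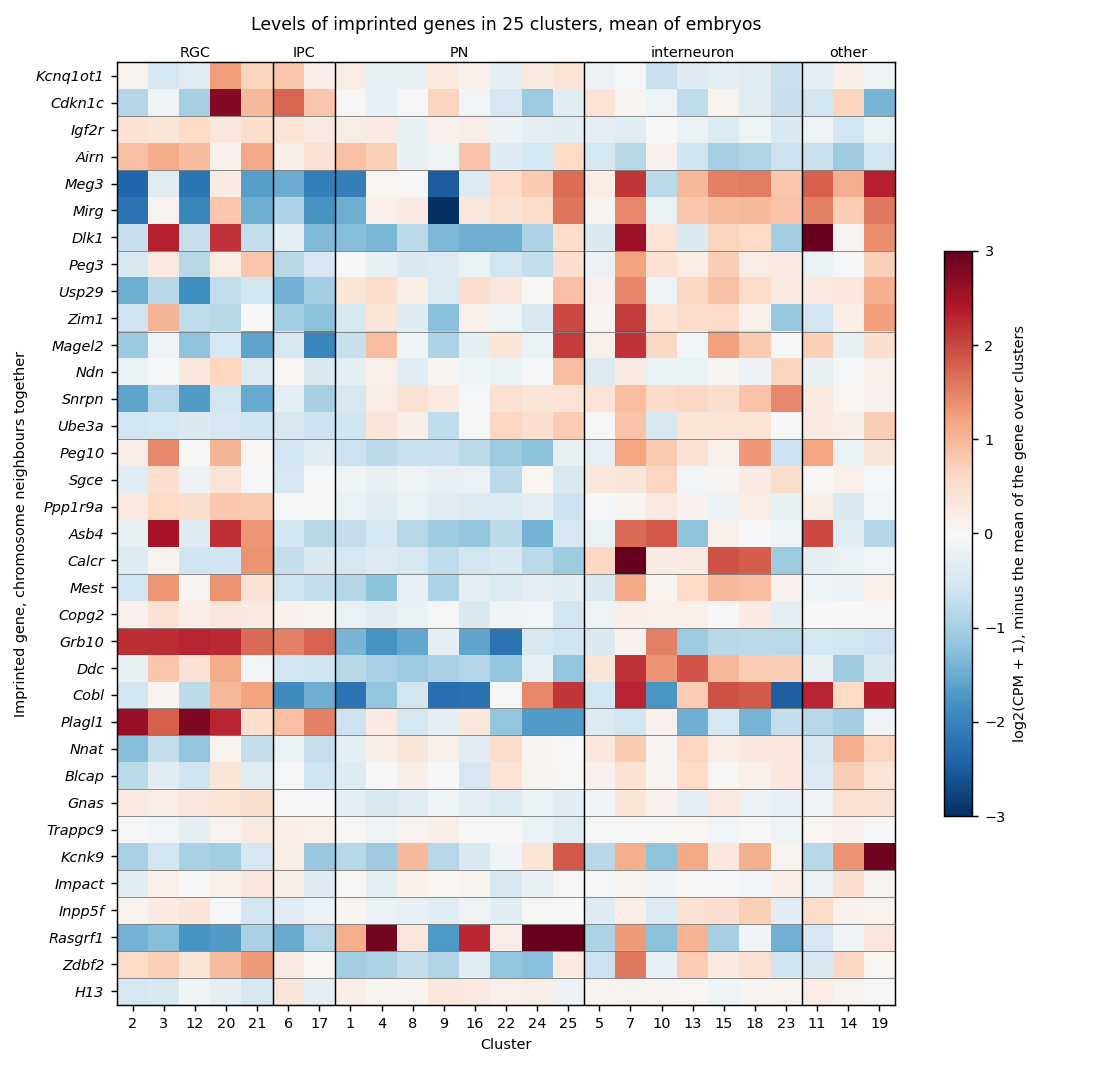
Heat map of 35 imprinted genes (rows, chromosome neighbours between grey lines) in 25 clusters (columns, by cell class), as log2(CPM + 1) minus the gene's mean over clusters, with colours capped 3 units either side of 0. Grb10 and Plagl1 are red in the RGC and IPC columns, while Usp29, Snrpn and Ube3a are blue there and red in Cluster 7.

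In the Kcnq1 neighbourhood of chromosome 7, the noncoding RNA Kcnq1ot1 (chr7:143203458-143296549, within Kcnq1 on the other strand) was highest in RGC Cluster 20 (1653 ± 265 CPM, SD, n = 9) and next in IPC Cluster 6 (1225 ± 222 CPM, n = 11). It was lowest in interneuron Cluster 23 at 438 ± 160.5 CPM (n = 10). Cdkn1c, which encodes an inhibitor of cyclin-dependent kinases and is a known target of Kcnq1ot1, had the same 2 clusters at the top, where it was 56.8 ± 35.0 and 28.2 ± 6.75 CPM. The lowest cluster for Cdkn1c was Cluster 19, at 2.29 ± 2.01 CPM.

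Members of the Grb10 neighbourhood on chromosome 11 did not share a pattern. Grb10, an adaptor that restrains insulin and IGF receptor signalling, was 340 to 513 CPM in the 5 RGC clusters and 298 to 355 CPM in the 2 IPC clusters, but 21.5 to 84.7 CPM in the PN clusters. Among the interneuron clusters it reached 299 ± 33.8 CPM in Cluster 10, the late interneuron precursors. Cobl, an actin nucleator, was highest in Cluster 19 (119 ± 23.9 CPM) and Cluster 7 (114 ± 18.3 CPM), and Ddc, which makes dopamine and serotonin, was highest in Cluster 7 at 14.1 ± 6.45 CPM. Plagl1, a zinc finger transcription factor gene on chromosome 10, was also highest in an RGC cluster, with 274 ± 27.5 CPM in RGC Cluster 12 and 11.2 to 49.1 CPM in the PN clusters.

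The Dlk1-Meg3 neighbourhood of chromosome 12 had its highest levels in neuronal or unnamed clusters. Meg3, a noncoding RNA, was 5703 ± 689 CPM in Cluster 19 and 5026 ± 430 CPM in Cluster 7, and 199 ± 83.3 CPM in early PN Cluster 9. Mirg, a microRNA host read in the same direction, ran from 133 ± 23.2 CPM in PN Cluster 25 to 3.94 ± 2.55 CPM in Cluster 9. Dlk1, a Notch-like membrane protein of the same neighbourhood, was highest in striatal Cluster 11 at 71.8 ± 22.8 CPM.

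Cluster 7 was the highest cluster for several members. It held 1049 ± 140.5 CPM of Usp29, a deubiquitinase family gene, 148 ± 49.3 CPM of Peg3, the zinc finger gene next to it, and 15.5 ± 8.89 CPM of Zim1. It also led for Zdbf2 at 135 ± 47.4 CPM, Magel2 at 30.04 ± 15.9 CPM, Ube3a at 698 ± 134 CPM and Calcr, the calcitonin receptor, at 17.2 ± 14.8 CPM. Snrpn, a splicing gene of the Prader-Willi region, was highest in interneuron Cluster 23 at 621 ± 103 CPM, and its neighbour Ndn was 3.42 to 10.3 CPM over the clusters. Nnat, a small membrane protein of the endoplasmic reticulum, and Blcap, within which it lies, were both highest in Cajal-Retzius Cluster 14, at 1494 ± 226 and 104 ± 18.1 CPM.

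In the remaining neighbourhoods, Airn, an antisense noncoding RNA, and Igf2r, which it overlaps, were highest in RGC clusters, with 148 ± 44.3 CPM of Airn in Cluster 21 and 63.6 ± 15.6 CPM of Igf2r in Cluster 12. Mest and Asb4 were high in RGC Clusters 3 and 20, with 151 and 155 CPM of Mest and 17.6 and 14.4 CPM of Asb4. Peg10, a retrotransposon-derived gene, and Copg2 had their highest level in Cluster 3 as well, with 11.05 ± 4.57 and 220 ± 23.9 CPM. Ppp1r9a, an actin-binding gene of synapses, reached 843 ± 150 CPM in Cluster 20, and Sgce reached 215 ± 26.9 CPM in Cluster 10. Rasgrf1 was 103 ± 43.4 CPM in PN Cluster 24 and 0.942 ± 0.986 CPM in RGC Cluster 12, and Kcnk9, a potassium channel, was 18.6 ± 9.66 CPM in Cluster 19. Gnas, H13, Impact, Inpp5f and Trappc9 stayed within 2.45-fold between highest and lowest cluster.

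Chromosome neighbours were compared by the correlation of their log2(CPM + 1) over the 25 clusters. The points share libraries and depth, so the values are descriptive. The median r was 0.58 over 30 pairs of neighbours and 0.14 over 565 pairs from different neighbourhoods, and r exceeded 0.5 in 63.3% and 18.1% of these pairs. The most alike neighbours were Meg3 and Mirg (r = 0.96), Nnat and Blcap (r = 0.95) and Igf2r and Airn (r = 0.84). The last 2 pairs overlap on opposite strands, and Cell Ranger at its default settings, which the methods name, counts reads on a gene's own strand. Negative values were found for Grb10 with Cobl (r = -0.05) and Trappc9 with Kcnk9 (r = -0.14).

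EtOH was then compared with saline in each cluster, to ask which members changed with exposure in which cells. In at least 1 cluster, 5 genes fell: Kcnq1ot1 in 10 clusters, Peg3 in 2, and Grb10, Nnat and Zdbf2 in 1 each, and no member rose. A gene was called at an adjusted p under 0.05 over all genes tested in the cluster (edgeR quasi-likelihood test) and a fold change below 0.8 or above its inverse. Of 632 tests of 36 members, 15 were called (2.37%), against 0.792% of all tests of all genes in the 25 clusters, where 0.35% were lower and 0.442% higher. Kcnq1ot1 gave 10 of these 15 from its 25 tests, so the higher share of calls among members rests on this gene. Peg3, Grb10, Nnat and Zdbf2 gave the rest, and the called share of the other members' tests was near the 0.792% of all genes. These calls were all lower, where 0.35% of all tests were lower. By adjusted p alone 17 were called, against 0.869% of all tests. By cluster, the share of all genes called lower was 1.69% in Cluster 1, 0.363% in Cluster 2, 0.386% in Cluster 4, 0.813% in Cluster 5, 0.865% in Cluster 8, 0.799% in Cluster 9, 0.383% in Cluster 11, 0.196% in Cluster 13, 0.0766% in Cluster 15, 0.0632% in Cluster 18 and 0.153% in Cluster 23. The median log2 fold change of the members tested was negative in 24 of 25 clusters, from -0.17 to 0.01, while that of all genes ran from -0.01 to 0.01. All clusters come from the same embryos and dams, so signs counted over clusters, here and below, are not independent of each other. The number of calls rested on single embryos. It was 87 without S2-4 (72 lower and 15 higher, 13.6% of 638 tests, against 8.78% over all genes, 2.61% lower and 6.17% higher), and 0 without S1-1, 1 without S1-2, 3 without S2-1, 2 without S2-2 and between 1 and 5 without each EtOH embryo (5 without E1-1, 4 without E1-2, 1 without E2-1, 2 without E2-2, 4 without E2-3 and 4 without E2-4). In the 10 fits that kept S2-4, the share of all genes called was 0.0408% to 0.352%, so it fell as well. At an unadjusted p under 0.05, edgeR gave 155 of 637 member tests without S1-1, the fit with 0 calls, where 13.7% of all tests did so. Without S2-4 the calls came from 17 members. Beside those described below with their counts, Meg3 was then called lower in Clusters 1, 9 and 21, Snrpn in 2, 6 and 12, Sgce in 6, 8 and 9, Mirg in 1 and 13, Cobl in 1 and 6, Plagl1 in 8 and 13 and Asb4 in 11, and Igf2r higher in 1 and 4. With batch as a replicate block there were 8 calls, 7 of them among the 15, and 0.419% of all tests were called. The calls lost were those of Kcnq1ot1 in Clusters 4, 8, 9, 15 and 23, of Peg3 and Zdbf2 in Cluster 5 and of Nnat in Cluster 1.

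**Figure D2:**
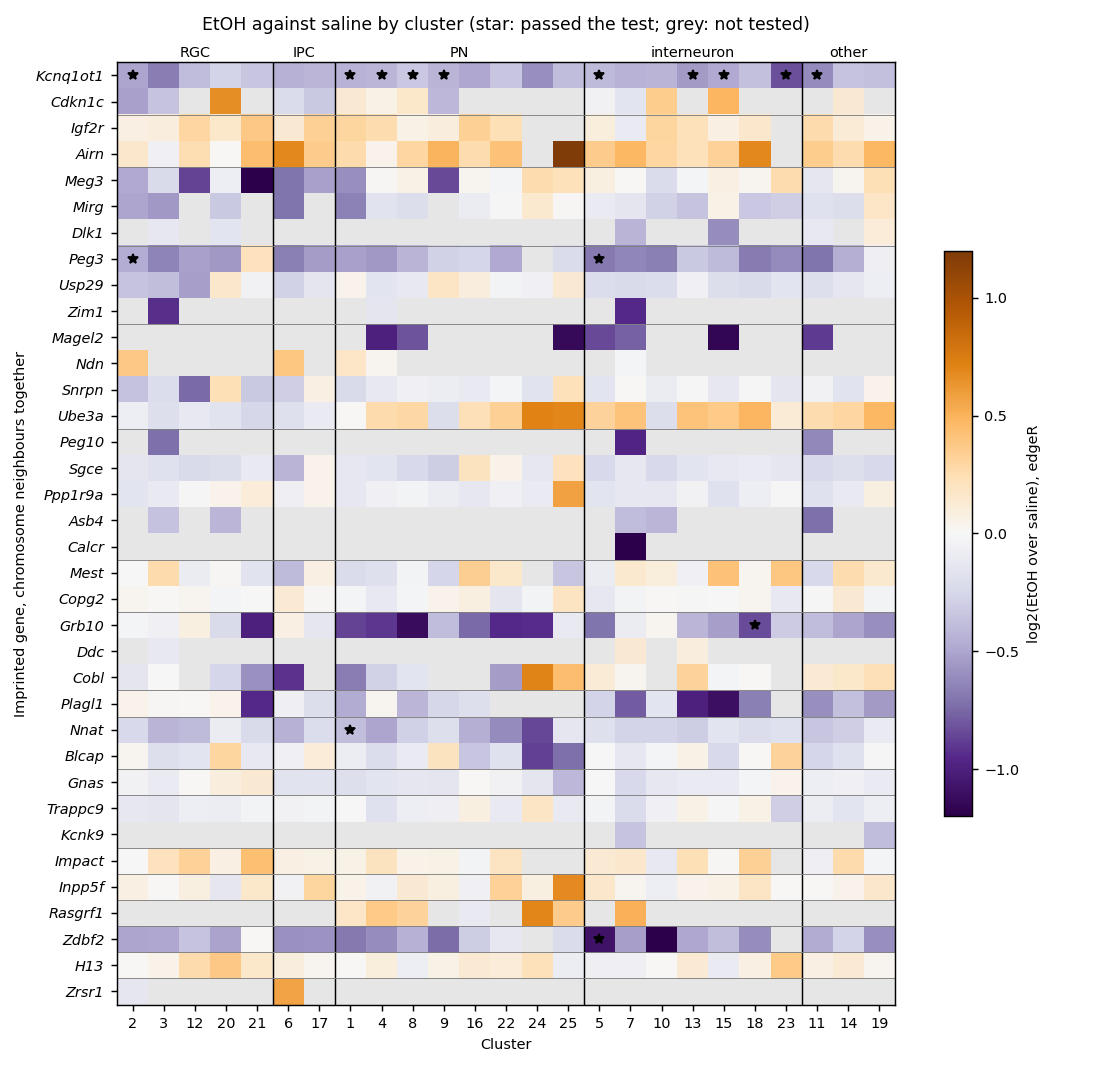
Heat map of log2(EtOH over saline) from edgeR for 36 imprinted genes (rows) in 25 clusters (columns), with stars at the 15 tests that were called and grey where a gene was not tested. Purple, for lower in EtOH, fills the rows of Kcnq1ot1 and Nnat, and the row of Ube3a is purple in RGC and IPC clusters and orange in most neuronal clusters.

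In sums over all clusters of an embryo, 5 of 38 members tested were called, all lower in EtOH: Kcnq1ot1, Grb10, Peg3, Zdbf2 and Calcr. Of all 18138 genes tested, 12.1% were called in this comparison, 3.55% lower and 8.55% higher, against 13.2% of the members. In these sums, fewer nuclei of a type and less RNA per nucleus cannot be told apart. The median log2 fold change was -0.17 for members, 29 of which were negative, and 0.01 for all genes. Counts of called members were 8 without S2-4 (7 lower and 1 higher, where 23% of all genes were called, 6.38% lower and 16.6% higher), 4 without S2-2 or E2-2, 3 without E1-1 or E2-4, 2 without S1-1, S2-1, E1-2, E2-1 or E2-3, and 1 without S1-2. Without S2-4, Calcr lost its call, and Nnat, Magel2 and Peg10 were called lower and Commd1 higher. In the 10 fits that kept S2-4, 2.27% to 10.9% of all genes were called.

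In the sums of the 4 cell classes, 12 of 133 member tests were called (9.02%), 10 lower and 2 higher, against 4.32% of all tests of all genes, of which 1.47% were lower and 2.85% higher. Kcnq1ot1 was lower in each class (log2 fold changes -0.57 in RGC, -0.45 in IPC, -0.44 in PN and -0.48 in interneurons, edgeR adjusted p 0.0245 to 0.0470). Peg3 and Zdbf2 were lower in IPC and in PN, and Grb10 and Nnat in PN. Airn was higher in IPC and Rasgrf1 in PN. As in whole embryos, a class sum mixes the shares of its clusters with the level in each. With batch as a replicate block 8 of the 12 remained, and the 4 calls in IPC were lost (edgeR adjusted p 0.0541 to 0.0552). The count was 25 without S2-4 (21 lower and 4 higher, where 18% of all genes were called, 5.06% lower and 13% higher), 8 without E1-1, 4 without S2-2 or E2-4, 2 without E1-2 or E2-1 and 0 without S1-1, S1-2, S2-1, E2-2 or E2-3. Among the 13 calls gained without S2-4 were Usp29 in RGC, Cobl in RGC and IPC, Meg3 in IPC, Peg10 in PN and Plagl1 in interneurons. In the 5 edgeR fits with 0 calls at most 0.208% of all tests were called. Of 132 member tests in each, those with an unadjusted p under 0.05 were 45 without S1-1 (22.8% of all tests), 38 without S1-2 (22.6%), 34 without S2-1 (23.1%), 45 without E2-2 (25.1%) and 40 without E2-3 (26.1%).

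Kcnq1ot1 was the member with the most calls. Its whole-embryo level was 807, 882, 913, 852 and 627 CPM in saline embryos S1-1, S1-2, S2-1, S2-2 and S2-4, and lay between 537 and 667 CPM, with a median of 620 CPM, in the 6 EtOH embryos. Saline embryo S2-4 lay within the EtOH range, and the other 4 saline embryos lay above every EtOH embryo. The means were 816 ± 113 (SD, n = 5) and 613 ± 43.1 CPM (n = 6), a log2 fold change of -0.49 ± 0.10 (SE, edgeR adjusted p = 0.0154). The difference was present in both batches, with 844 against 649 CPM in batch 1 and 797 against 595 CPM in batch 2. It passed without each embryo in turn (adjusted p between 1.87e-05 and 0.0479), and was -0.59 without S2-4. Without S2-4, Kcnq1ot1 was the 1 member whose groups did not overlap with EtOH lower, as for 5.04% of all genes. With counts summed per dam, 2 against 2, its adjusted p was 0.0940. UMIs per nucleus moved with it, as given above.

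By cluster, the log2 fold change of Kcnq1ot1 was negative in 25 of 25 clusters, from -0.83 to -0.27, and in the 10 clusters where it was called (1, 2, 4, 5, 8, 9, 11, 13, 15 and 23) the adjusted p ran from 0.0136 to 0.0495. In striatal Cluster 11 the saline embryos had 628, 729, 869, 758 and 518 CPM and the EtOH embryos 438 to 508 CPM, with a median of 482 CPM. All saline embryos, S2-4 included, lay above all EtOH embryos there, and the log2 fold change was -0.61 ± 0.11 (edgeR adjusted p = 0.0189). In interneuron Cluster 13, saline embryos had 629, 685, 624, 698 and 532 CPM against 401 to 534 CPM in EtOH embryos, where E1-1 lay just above S2-4. The log2 fold change was -0.54 ± 0.10 (edgeR adjusted p = 0.0136), and it passed in 10 of 11 fits that left out 1 embryo. In Cluster 11 it passed in 6 of them. In the other 8 clusters called it passed in 1 or 2 of these fits, the one without S2-4 among them. S2-4 had the lowest Kcnq1ot1 of the saline embryos in 22 of 25 clusters. The groups did not overlap, with EtOH lower, in 3 of 25 clusters with all embryos and in 17 without S2-4, and over all genes tested in the clusters this share was 0.947% and 2.45%. Without S2-4, Kcnq1ot1 was called lower in 19 clusters, and with batch as a replicate block in 5 (Clusters 1, 2, 5, 11 and 13), with edgeR adjusted p of 0.0588 to 0.0730 in the other 5. With the dam as a random block the calls in Clusters 2, 4 and 8 were lost (limma adjusted p 0.0525 to 0.0644). With dam sums the calls in Clusters 11, 15 and 23 remained and the other 7 were lost.

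**Figure D3:**
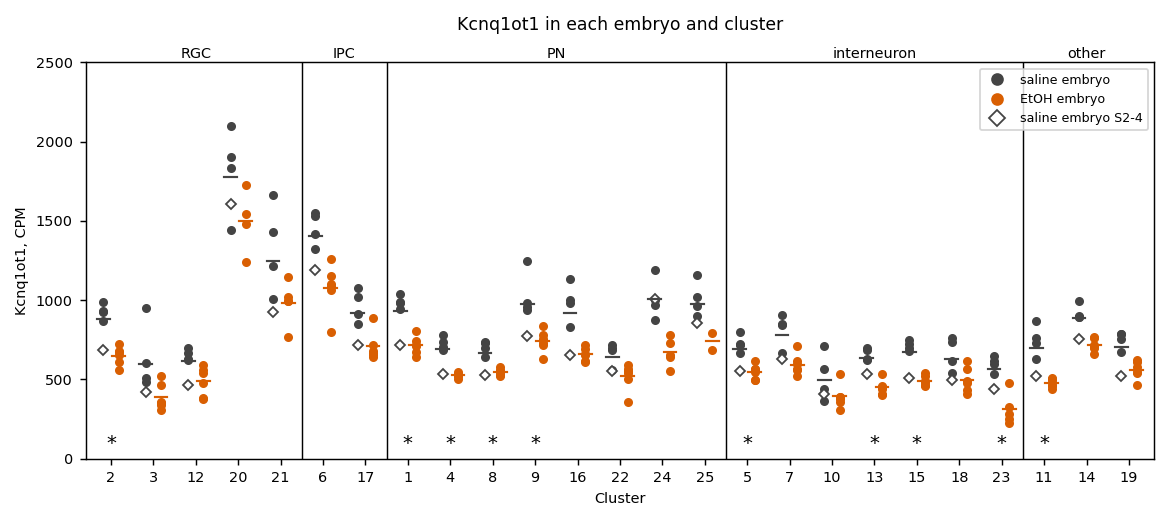
Kcnq1ot1 in CPM (vertical axis) in each embryo with at least 10 nuclei, by cluster (horizontal axis, grouped by class), with bars at group means and asterisks at the 10 clusters called. EtOH means lie below saline means in every cluster, and the open diamond of saline embryo S2-4 lies among or next to the EtOH points in most.

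The neighbours of Kcnq1ot1 did not pass. Cdkn1c was 7.09 to 11.9 CPM in saline and 6.82 to 10.7 CPM in EtOH embryos (log2 fold change -0.13 ± 0.13, edgeR adjusted p = 0.481), and the groups overlapped. In the 14 clusters where it was tested, 7 log2 fold changes were negative. Kcnq1, the potassium channel gene that overlaps Kcnq1ot1 on the other strand and is no member, was 86.8, 83.8, 86.0, 114 and 140 CPM in saline embryos and 117 to 144 CPM in EtOH embryos. Its log2 fold change was 0.31 ± 0.10 (edgeR adjusted p = 0.0485), which did not reach the fold limit, and again S2-4 lay among the EtOH embryos.

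Peg3 fell in RGC Cluster 2 and in Cluster 5, the migrating interneurons. In Cluster 2 its level was 49.4, 48.8, 55.0, 62.4 and 48.5 CPM in the saline embryos and 33.4 to 45.8 CPM, with a median of 39.2 CPM, in the EtOH embryos. The groups did not overlap, S2-4 included, and the log2 fold change was -0.47 ± 0.10 (edgeR adjusted p = 0.0408). In Cluster 5 it was 65.5, 69.3, 93.7, 65.5 and 54.6 CPM in saline and 35.7 to 59.97 CPM in EtOH embryos, where E2-2 lay above S2-4 (log2 fold change -0.69 ± 0.16, edgeR adjusted p = 0.0448). In whole embryos the values were 67.5, 83.3, 124, 79.1 and 58.5 CPM in saline and 49.3 to 69.2 CPM in EtOH embryos (log2 fold change -0.65 ± 0.18, edgeR adjusted p = 0.0307). S2-1 was the highest saline embryo, and without it the log2 fold change was -0.46 (edgeR adjusted p = 0.0574). Both cluster calls passed in 1 of 11 fits that left out 1 embryo, the one without S2-4 (edgeR adjusted p = 0.00120 for each). Without S2-4 Peg3 was called lower in 11 clusters, against 2 with it. The whole-embryo call passed in 4 of 11 such fits, those without S2-2, S2-4, E2-2 or E2-4. The log2 fold change of Peg3 was negative in 23 of 24 clusters tested.

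Usp29, which starts next to Peg3 in the opposite direction, did not pass with all embryos, and without S2-4 it was called lower in Clusters 2 and 6. Its whole-embryo level was 422, 444, 608, 408 and 393 CPM in saline and 377 to 493.2 CPM in EtOH embryos, which overlapped (log2 fold change -0.17 ± 0.12, edgeR adjusted p = 0.315). Zim1, on the other side of Peg3, was 2.70 to 12.4 CPM in saline and 2.13 to 4.995 CPM in EtOH embryos, with a log2 fold change of -0.87 ± 0.40 (edgeR adjusted p = 0.136). Zim3, which overlaps Usp29 on the other strand and is no member, was 2.84 to 5.03 CPM in saline and 4.26 to 7.99 CPM in EtOH embryos. It was called higher (log2 fold change 0.66 ± 0.17, edgeR adjusted p = 0.0240), as were 8.55% of all genes.

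Zdbf2, a gene of chromosome 1 whose paternal copy is known to be set early in development, fell in Cluster 5. There it was 28.7, 45.3, 61.4, 37.5 and 23.97 CPM in the saline embryos and 11.6 to 23.3 CPM, with a median of 19.1 CPM, in the EtOH embryos. The groups did not overlap, and the log2 fold change was -1.09 ± 0.25 (edgeR adjusted p = 0.0472), which passed in 1 of 11 fits that left out 1 embryo, without S2-4 (-1.23, edgeR adjusted p = 0.000806). Over whole embryos it was 53.4, 63.5, 110, 61.2 and 44.2 CPM in saline and 33.3 to 57.4 CPM in EtOH embryos (log2 fold change -0.75 ± 0.23, edgeR adjusted p = 0.0426). S2-1 was again highest and S2-4 lowest of the saline embryos, and without S2-1 the log2 fold change was -0.49 (edgeR adjusted p = 0.0901). The whole-embryo call passed in 2 of 11 such fits, those without S2-4 or E2-2, and was lost in the other 9. Without S2-4 Zdbf2 was called lower in 9 clusters, against 1 with it. With the dam as a random block the limma adjusted p was 0.103 in Cluster 5 and 0.0752 in whole embryos, and both calls were lost. Its log2 fold change was negative in 22 of 23 clusters tested.

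**Figure D4:**
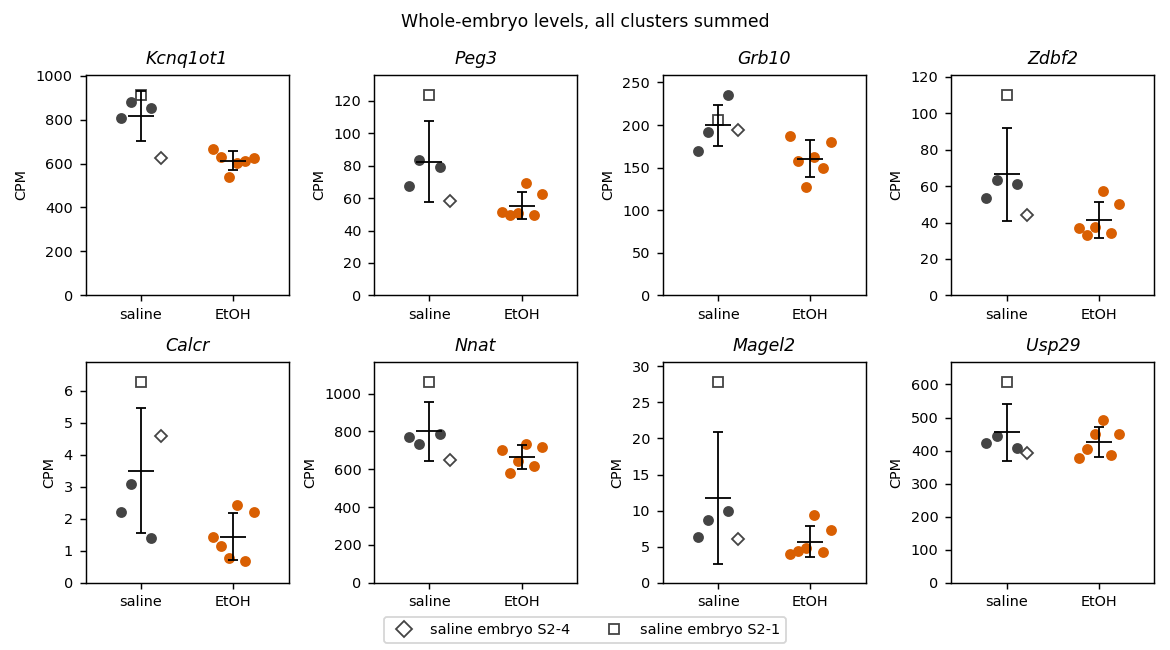
Whole-embryo CPM (vertical axes, each from 0) of 8 imprinted genes in 5 saline and 6 EtOH embryos, with mean ± SD in black. Open diamonds mark saline embryo S2-4 and open squares saline embryo S2-1, which is the highest saline embryo for Kcnq1ot1, Peg3, Zdbf2, Calcr, Nnat, Magel2 and Usp29.

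Grb10 fell in interneuron Cluster 18 (Int 4), where saline embryos had 73.4, 72.7, 90.6, 76.2 and 73.4 CPM and EtOH embryos 30.3 to 52.9 CPM, with a median of 47.9 CPM. All saline embryos lay above all EtOH embryos, and S2-4 did not stand apart. The log2 fold change was -0.84 ± 0.15 (edgeR adjusted p = 0.0161), and it passed in 5 of 11 fits that left out 1 embryo (adjusted p between 0.00194 and 0.0986). With counts summed per dam the edgeR adjusted p was 0.0967 in Cluster 18 and 0.0892 in whole embryos, and both calls were lost. Over whole embryos Grb10 was 170, 192, 206, 236 and 194 CPM in saline and 127 to 187 CPM in EtOH embryos, which overlapped through S1-1 (log2 fold change -0.38 ± 0.09, edgeR adjusted p = 0.0180). Without S2-4 Grb10 was called lower in 5 clusters, against 1 with it. The batches differed in size, with 181 against 172 CPM in batch 1 and 212 against 155 CPM in batch 2.

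In the RGC clusters, where Grb10 is highest, its sum was 449 to 511 CPM in saline and 449 to 515 CPM in EtOH embryos. In the sums of PN clusters it was 43.6, 48.1, 58.9, 81.1 and 35.0 CPM in saline and 27.3 to 33.8 CPM in EtOH embryos, so that each saline embryo lay above each EtOH embryo. The log2 fold change was negative in 8 of 8 PN clusters and had an unadjusted edgeR p under 0.05 in 6 of them. It was also negative in 4 of 5 RGC clusters (-0.999 to 0.08), 1 of 2 IPC clusters and 6 of 7 interneuron clusters. The striatal, Cajal-Retzius and unknown clusters were negative as well, 3 of 3. An unadjusted edgeR p under 0.05 was found in 1 RGC, 3 interneuron and 2 of these other clusters, and in no IPC cluster. The test of a difference among classes gave an adjusted p of 0.148 for Grb10 with all embryos (edgeR) and passed without S2-4. Its neighbours Ddc and Cobl were 2.07 to 10.0 and 25.2 to 38.4 CPM in saline and 1.59 to 6.23 and 23.1 to 41.6 CPM in EtOH embryos, with edgeR adjusted p of 0.655 and 0.589.

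Nnat fell in Cluster 1, the callosal PN. Saline embryos had 625.1, 588, 806, 680 and 517 CPM there and EtOH embryos 480.5 to 532 CPM, with a median of 516 CPM. S2-4 lay among the EtOH embryos and the other 4 saline embryos above them (log2 fold change -0.38 ± 0.09, edgeR adjusted p = 0.0396), and the call held in 1 of 11 fits that left out 1 embryo, without S2-4 (-0.46, edgeR adjusted p = 6.25e-05). The call was lost with batch as a replicate block (edgeR adjusted p = 0.0527) and with the dam as a random block (limma adjusted p = 0.0526). Dam sums lost it as well (edgeR adjusted p = 0.164). Over whole embryos Nnat was 771, 732, 1062, 789 and 651 CPM in saline and 580 to 735 CPM in EtOH embryos, and the log2 fold change of -0.35 ± 0.12 missed the limit at an edgeR adjusted p of 0.0501, and without S2-4 it passed (-0.43, edgeR adjusted p = 0.00406). It was negative in 25 of 25 clusters, and without S2-4 it was called lower in 8, against 1 with it. Blcap, within which Nnat lies, was 51.2 to 79.0 CPM in saline and 53.6 to 66.0 CPM in EtOH embryos (log2 fold change -0.14 ± 0.09, edgeR adjusted p = 0.275).

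Calcr was called in whole embryos and in no cluster or class, at low levels of 2.20, 3.08, 6.28, 1.39 and 4.60 CPM in saline and 0.682 to 2.45 CPM in EtOH embryos (log2 fold change -1.31 ± 0.42, edgeR adjusted p = 0.0473). The groups overlapped, as S2-2 and S1-1 lay within the EtOH range. The call held in 1 of 11 fits that left out 1 embryo and was lost without S2-4 (-1.21, edgeR adjusted p = 0.0638) and without S2-1 (-0.98, edgeR adjusted p = 0.114), and with the dam as a random block the limma adjusted p was 0.114. In Cluster 7, the only cluster where it was tested, it was 27.1, 23.6, 25.7, 14.4 and 51.2 CPM in saline and 0 to 18.4 CPM in EtOH embryos (log2 fold change -1.69 ± 0.50, edgeR adjusted p = 0.127). With each cluster given equal weight, its adjusted p was 0.105 (limma), while Kcnq1ot1, Grb10, Peg3 and Zdbf2 passed. Of its listed neighbours on chromosome 6, Peg10 was 3.62 to 11.98 CPM in saline and 2.43 to 4.57 CPM in EtOH embryos (log2 fold change -0.97 ± 0.33, edgeR adjusted p = 0.0552), and without S2-4 it passed (-1.10, edgeR adjusted p = 0.0232). Asb4, Sgce and Ppp1r9a had log2 fold changes of -0.74, -0.25 and -0.18 with edgeR adjusted p of 0.109, 0.117 and 0.0673.

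Magel2, a regulator of ubiquitin ligases in the Prader-Willi region, was 6.28, 8.69, 27.8, 9.91 and 6.08 CPM in saline and 3.98 to 9.41 CPM in EtOH embryos. S2-1 alone was above 10 CPM and the other saline embryos overlapped the EtOH embryos. The log2 fold change was -1.09 ± 0.42 (edgeR adjusted p = 0.0821), and -0.48 without S2-1 (edgeR adjusted p = 0.207). Without S2-4 it was called lower in whole embryos (-1.25, edgeR adjusted p = 0.0453) and in Clusters 11 and 15. In Cluster 7 it was 25.8, 39.0, 68.0, 34.0 and 30.9 CPM in saline and 8.57 to 36.9 CPM in EtOH embryos, and S2-1 was the highest saline embryo in 20 of 25 clusters. Its log2 fold change was negative in 7 of 7 clusters tested, with the smallest edgeR adjusted p, 0.0603, in Cluster 15 (20.7 ± 6.09 against 10.4 ± 2.51 CPM).

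Ube3a, a ubiquitin ligase that neurons read from the maternal copy while progenitors use both, was the member whose EtOH effect differed among cell classes. One test per gene asked whether the effect was the same in RGC, IPC, PN and interneuron sums with the embryo as a block. It passed for Ube3a (edgeR F test, adjusted p = 0.000532) and for no other member, and for 0.631% of 15698 genes. In the PN sums, Ube3a was 345, 329, 350, 349 and 427 CPM in saline and 403 to 469 CPM in EtOH embryos, and in the interneuron sums 413, 392, 407, 432 and 472 CPM in saline and 483 to 674 CPM in EtOH embryos. Every EtOH embryo lay above every saline embryo in interneurons, and above the 4 saline embryos other than S2-4 in PN. In the RGC sums the values were 299, 279, 289, 268 and 252 CPM in saline and 247 to 279.5 CPM in EtOH embryos, and in the IPC sums 298, 278, 285, 278 and 251 CPM in saline and 249 to 270 CPM in EtOH embryos. The groups overlapped in both classes, where S2-4 was the lowest saline embryo. The other 4 saline embryos lay above every EtOH embryo in IPC, and S1-1 and S2-1 did so in RGC.

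The EtOH effect on Ube3a in interneurons exceeded that in RGC by 0.53 on the log2 scale, and in PN by 0.43, while IPC and RGC differed by -0.03. The test passed without each embryo in turn (adjusted p between 2.59e-07 and 0.0186, interneuron minus RGC 0.44 to 0.56) and with limma (adjusted p = 0.00132). Without S2-4, Airn and Grb10 passed as well, as did 1.24% of all genes. By cluster, the log2 fold change of Ube3a was negative in 5 of 5 RGC and 2 of 2 IPC clusters, positive in 7 of 8 PN clusters, all but early PN Cluster 9, and in 6 of 7 interneuron clusters, all but precursor Cluster 10. With all embryos it was called in no single cluster or class sum. Without S2-4 it was called higher in 9 clusters (4, 5, 7, 8, 13, 15, 18, 19 and 22), and in the interneuron sums it was called higher without S2-4 (log2 fold change 0.32, edgeR adjusted p = 0.00588) and without E1-1. With all embryos, in PN and interneurons it passed the adjusted p (0.0345 and 0.0355, edgeR) with log2 fold changes of 0.24 and 0.31, inside the fold limit. The nearest was Cluster 5, with a log2 fold change of 0.32 ± 0.07 (edgeR adjusted p = 0.0358) that missed the fold limit. By level, the RGC and IPC clusters lay at 248 to 288 CPM, while the lowest cluster of all was early PN Cluster 9 at 227 ± 27.1 CPM. Snhg14, which overlaps Ube3a on the other strand, was not analysed here.

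**Figure D5:**
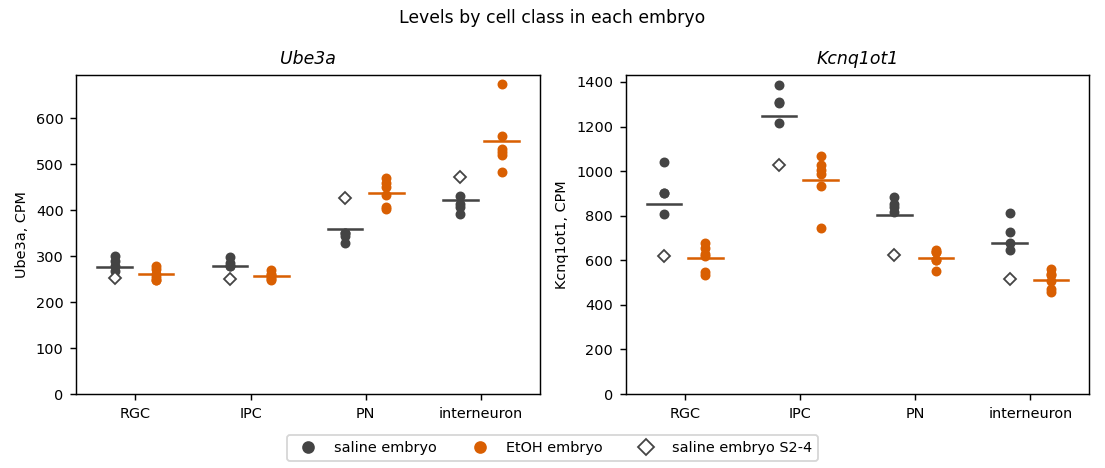
CPM of Ube3a (left) and Kcnq1ot1 (right) in the sums of RGC, IPC, PN and interneuron clusters of each embryo, with bars at group means and an open diamond for saline embryo S2-4. Ube3a is higher in EtOH embryos in PN and interneurons and slightly lower in RGC and IPC, while Kcnq1ot1 is lower in EtOH embryos in each class.

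Of the single members of the remaining neighbourhoods, Rasgrf1 rose in the PN sums. Its PN sums were 22.6, 24.9, 16.3, 21.4 and 22.6 CPM in saline and 25.1 to 32.6 CPM in EtOH embryos. The groups did not overlap, and the log2 fold change was 0.37 ± 0.10 (edgeR adjusted p = 0.0406), which passed in 1 of 11 fits that left out 1 embryo, without S2-4. By cluster, Rasgrf1 was called in none of the 7 tested, with or without S2-4. In the 6 PN clusters tested its log2 fold change was -0.11 to 0.70, with an unadjusted edgeR p under 0.05 in 2. Its level ran from 0.996 to 103 CPM over PN clusters, so cluster share and level cannot be told apart in PN sums. In whole embryos it was 11.03, 11.2, 5.19, 8.09 and 10.2 CPM in saline and 11.9 to 17.6 CPM in EtOH embryos, and it was the only member whose whole-embryo values did not overlap between the groups, against 1.98% of all genes that were higher without overlap and 2.16% that were lower. There the log2 fold change was 0.50 ± 0.20 (edgeR adjusted p = 0.0854). Gnas, the stimulatory G protein gene, passed the adjusted p (0.0386, edgeR) but its log2 fold change of -0.20 ± 0.06 did not reach the fold limit. Plagl1 had a log2 fold change of -0.27 ± 0.10 (edgeR adjusted p = 0.0697), and in Cluster 13 of -1.0 ± 0.27 (edgeR adjusted p = 0.0633). Meg3 was 1259 to 2208 CPM in saline and 1131 to 2048 CPM in EtOH embryos (log2 fold change -0.12 ± 0.18, edgeR adjusted p = 0.655).

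Airn rose in IPC, where its sums were 57.95, 63.1, 46.6, 57.8 and 83.6 CPM in saline and 76.0 to 109 CPM in EtOH embryos. S2-4 lay above E2-2, and the other saline embryos lay below every EtOH embryo. The log2 fold change was 0.57 ± 0.12 (edgeR adjusted p = 0.0470), and it passed in 1 of 11 fits that left out 1 embryo, without S2-4. By cluster, Airn was called in none with all embryos and higher in 4 without S2-4. It was positive in 22 of 23, with a whole-embryo log2 fold change of 0.21 ± 0.10 (edgeR adjusted p = 0.137), and Igf2r in 21 of 22, with 0.14 ± 0.07 (edgeR adjusted p = 0.142). Mas1, which overlaps Airn on the other strand and is no member, was very low, at 0.134 to 0.464 CPM in saline and 0.368 to 0.912 CPM in EtOH embryos. In whole embryos it was called higher (log2 fold change 1.29 ± 0.34, edgeR adjusted p = 0.0257). Mest, Copg2, Trappc9, Impact, Inpp5f, H13, Zrsr1, Snrpn, Ndn, Mirg, Dlk1 and Kcnk9 had whole-embryo log2 fold changes between -0.60 and 0.19 and edgeR adjusted p from 0.130 to 0.912. H19 and Commd1 were tested in no single cluster. In whole embryos their log2 fold changes were -0.54 and 0.62 (edgeR adjusted p = 0.195 and 0.127), and 0.77 for Commd1 without S2-4 (edgeR adjusted p = 0.04998). In the RGC sums they were -0.14 and 0.63 (edgeR adjusted p = 0.834 and 0.270). Igf2 was too low to be tested.

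Of 16 listed regulators of imprinting, which set, read or keep methylation and histone marks, 2 were called, each lower. Zfp445, a zinc finger gene that keeps imprints beside Zfp57, fell in whole embryos, from 99.8, 106, 106, 101 and 88.6 CPM in saline to 79.8 to 88.4 CPM in EtOH embryos (log2 fold change -0.33 ± 0.07, edgeR adjusted p = 0.0154). The groups did not overlap, and S2-4 was the lowest saline embryo. It also fell in Clusters 2 and 4 (log2 fold changes -0.35 and -0.43, edgeR adjusted p = 0.0408 and 0.0495). With the dam as a random block or without TMM, no gene was called lower in either cluster, so both calls were lost. With batch as a replicate block none was called lower in Cluster 4. Ezh2, the methyltransferase of Polycomb complex 2, fell in Cluster 5 (log2 fold change -0.32 ± 0.07, edgeR adjusted p = 0.0290). With all embryos and no block, 3 of 289 cluster tests of regulators were called, all lower (1.04%, against 0.35% of all tests lower), and in whole embryos 1 of 13, where 3.55% of all genes were called lower. Those of Zfp445 among the 3 were lost in the fits named above.

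Other cell types and dividing cells were read beside these values. The summed CPM of the 2 genes of dividing cells, Top2a and Mki67, was 223 to 366 in saline and 203 to 285 in EtOH embryos, and Mki67 was called lower. The sum of 6 RGC markers was 278 to 332 CPM in saline and 273 to 355 CPM in EtOH embryos, with Nes called lower, with no gene called among the 3 IPC (66.7 to 95.5 against 56.5 to 88.2 CPM), 4 PN (351 to 708 against 586 to 773), 5 interneuron (615 to 1507 against 644 to 1072), 2 striatal (825 to 1121 against 764 to 1331) and 3 Cajal-Retzius genes (460 to 893 against 361 to 667). The sums of 6 meningeal fibroblast (8.38 to 32.6 against 8.94 to 13.6 CPM), 3 pericyte (7.29 to 11.6 against 7.60 to 9.61), 4 endothelial (7.23 to 12.9 against 6.91 to 13.2) and 3 choroid plexus genes (10.1 to 77.8 against 2.43 to 26.1) were low, with Col1a2 called lower, and none of their genes was at 0. The sum of 3 microglial genes was 7.86 to 17.4 CPM in saline and 14.7 to 19.8 CPM in EtOH embryos, with P2ry12 called higher and S2-4 the highest saline embryo for it. The sums of 2 OPC (2.70 to 4.77 against 2.10 to 3.79 CPM), 4 erythroid (5.99 to 95.6 against 18.01 to 43.3) and 4 thalamic genes (200 to 510 against 181 to 473) overlapped between the groups. Their part in the differences above was not tested.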

How the data were processed

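Nuclei of cortices from 11 embryos were profiled by snRNAseq, and 1 further labelled saline embryo was not analysed here. The deposited values are counts of UMIs per gene and nucleus, which the authors made with Cell Ranger on mm10 and filtered and clustered in Seurat 4.1.0. Their stated limits were 500 to 10000 genes, under 2.5% mitochondrial and under 50% ribosomal reads per nucleus. The methods name default Cell Ranger settings, which count reads on the strand of the gene. The tables hold fewer nuclei than the study states, and doublets were not called.

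Counts were summed per embryo and cluster (at least 10 nuclei), per embryo and class, and per embryo. Each sum was tested over all genes passing filterByExpr with edgeR 4.0.16 (TMM, quasi-likelihood, R 4.3.3) and Benjamini-Hochberg adjustment, and a gene was called where the adjusted p was under 0.05 with a fold above 1.25 or below 0.8. Differences among classes were tested with the embryo as a block. Calls within class sums, with their alternatives, were added after seeing the data. Depth was 14078316 to 83061737 UMIs per embryo. Littermates were treated as independent, so p-values do not carry the spread between dams. Alternatives used DESeq2 1.42.0, limma 3.58.1, other scalings and filters, dam sums, thinning, a batch term and leaving out each embryo.

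The members and lists were chosen with earlier results of these data known. Values per embryo were given for members called, their listed neighbours and Magel2, and other members by level or range. Over 8941 genes the difference between batches in saline and in EtOH embryos correlated at r = -0.05. Within each group the batches are also different dams, so this value cannot tell whether a batch effect is shared.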

Additional observations from a re-analysis of the deposited data

Results flagged for a closer look

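Saline embryo S2-1 stood far above the other saline embryos for 7 members, by the gap to the nearest embryo as a share of the group's range. Its whole-embryo level was 608 CPM of Usp29 (nearest 444 CPM), 323 CPM of Snrpn (241 CPM), 27.8 CPM of Magel2 (9.91 CPM) and 12.4 CPM of Zim1 (5.42 CPM). It was also 11.98 CPM of Peg10 (4.998 CPM), 10.6 CPM of Asb4 (4.55 CPM) and 10.0 CPM of Ddc (2.70 CPM). These were 7 of 46 groups examined, where chance marks about 1 group in 20 if groups are independent. They are not, as all 7 flags are of the same embryo and some are of chromosome neighbours, so the rates cannot be compared. The same embryo had the largest share of nuclei in Cluster 7, 15.7%, and the part of that share in these levels was not tested.

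Ube3a differed in its EtOH effect between cell classes, with the effect in interneurons exceeding that in RGC by 0.53 on the log2 scale (edgeR adjusted p = 0.000532 over the 4 classes).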

How the results depend on the processing

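The count of member calls over clusters, 15 (0.792% of all genes' tests called), was 41 with DESeq2 (2.6%), 7 without TMM (0.377%), 79 without the filter on low counts (2.07%) and 8 with batch as a replicate block (0.419%), and ran from 0 to 87 when 1 embryo was left out (0.0408% to 8.78%). It was 22 with dam sums (0.721%), 20 with the dam as a random block (2.24%), 19 with thinned counts (1.02%), 14 with at least 30 nuclei (0.783%) and 17 by adjusted p alone (0.869%). In whole embryos the count of 5 (12.1% of all genes called) became 11 with DESeq2 (14.9%), 1 without TMM (8.78%), 3 without the filter (8.44%), 2 with dam sums (1.71%) and 3 with the dam as a random block (12.2%), and ran from 1 to 8 with 1 embryo left out (2.27% to 23%). The replicate block gave 7 (11.3%). In class sums, an analysis added after seeing the data, the count of 12 (4.32%) was 8 with the replicate block (2.82%) and ran from 0 to 25 with 1 embryo left out (0% to 18%). For differences among classes the count of 1 (0.631%) ran from 1 to 3 with 1 embryo left out (0.0699% to 1.24%, both highest without S2-4). The cause of these shifts was not tested. With the dam as a random block 9 of the 15 cluster calls remained. In Clusters 9, 13, 15, 18 and 23 the estimated correlation within dams was negative (-0.000795 to -0.0455). There the block could not widen the errors, so the calls kept in these clusters do not address the spread between dams. The calls of Kcnq1ot1 in Clusters 2, 4 and 8, Peg3 in Cluster 2 (limma adjusted p = 0.0538), Nnat in Cluster 1 (0.0526) and Zdbf2 in Cluster 5 were lost. In Clusters 1, 2, 4, 5, 8 and 11 the estimated correlation was 0.00577 to 0.0281. At values so near 0 the block hardly changed the errors, and the fit also used limma in place of edgeR. Calls kept or lost there do not address the spread between dams either. With dam sums 5 of the 15 remained, and those of Peg3 in Cluster 2 and Nnat in Cluster 1 were lost again (edgeR adjusted p 0.143 and 0.164). The number of members reaching 10 CPM was 34 or 35 under every alternative run. With 1 embryo left out, the whole-embryo log2 fold change of Ddc ran from -0.62 to 0.39 and that of Snrpn from -0.17 to 0.000235, both highest without S2-1. That of Zrsr1 was -0.08 with all counts and 0.0141 with thinned counts. Each treatment rests on 2 dams, and levels under 10 CPM rest on few UMIs per embryo.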
